A study of Mus musculus with 2 samples.

Results

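The genes described here are 10 genes of antigen presentation, taken by name from the 18309 genes in the deposited count tables. They are the class I heavy chain genes H2-K1 and H2-D1, their light chain partner B2m, the peptide transporter and loading genes Tap1, Tap2 and Tapbp, the immunoproteasome genes Psmb8 and Psmb9, and the class II genes H2-Ab1 and Cd74. All 10 were listed in both tables. The cultures joined primary fibroblasts and crypts. Both came from the small intestine, and the C57BL6 mice were 10 weeks old. In the Ptger4-ON group the cultures received the vehicle DMSO and the crypts grew as spheroids. In the Ptger4-OFF group the medium held 10 µM ONO-AE3-208, given every other day, and the crypts grew as budding organoids. ONO-AE3-208 is an antagonist of EP4, the prostaglandin E2 receptor that the gene Ptger4 encodes. Neither group carries a genetic change in the labels, and both were released with trypsin and EDTA before droplet capture.

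Each group was 1 Drop-seq library made from a pool of 6 cultures. Drop-seq captures single cells in droplets and counts RNA molecules by unique molecular identifiers (UMIs). With 1 library in each group there is no replicate, so no difference between the groups was tested. Levels are given as CPM, the UMIs of a gene in each 1000000 UMIs of a class of cells. Brackets hold 95% intervals, exact Poisson for CPM, exact conditional binomial for ratios and exact Clopper-Pearson for shares, and they cover counting error only. A difference between animals, cultures or captures cannot be told apart from the effect of the antagonist.

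Cells were sorted into 2 classes by marker genes. The epithelial-like class had 588 cells in Ptger4-ON and 1200 in Ptger4-OFF, with class totals of 5533875 and 7603583 UMIs. The fibroblast-like class had 288 and 360 cells, with totals of 1756918 and 1839148 UMIs. All 12 epithelial markers were detected in the first class, at 17250 and 14513 CPM in sum, and all 13 fibroblast markers in the second, at 34672 and 34391 CPM. Fibroblast markers stood in epithelial-like cells at 0.283% and 0.321% of their fibroblast-like level, and epithelial markers in fibroblast-like cells at 1.18% and 1.96% of their epithelial-like level. The Ptger4-ON library held 16 barcodes of over 50000 UMIs, which carried 22.9% of its epithelial-like UMIs, against 6 barcodes and 4.97% in Ptger4-OFF. The libraries shared 1 barcode sequence. In sums over a class, fewer cells that use a gene and less RNA per cell cannot be told apart.

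Class I molecules show peptides from inside the cell to CD8 T cells. Proteasomes cut proteins into peptides, the TAP transporter (Tap1 and Tap2) carries them into the endoplasmic reticulum, and tapasin (Tapbp) bridges TAP to the empty heavy chain with beta-2-microglobulin (B2m) until a peptide fits. Interferons raise most of these genes and exchange the standard catalytic subunits of the proteasome for the immunoproteasome subunits, Psmb8 and Psmb9 among them. Class II molecules, such as the one whose beta chain H2-Ab1 encodes, show peptides from outside the cell to CD4 T cells and are assembled on the invariant chain Cd74. In the small intestine the epithelium carries class I, and crypt and villus cells can also carry class II.

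The promoters of the heavy chain genes and of B2m are shown first, because these genes gave most of the UMIs. RefSeq start sites of build GRCm38.p6 were on hand for 7 of the 10 genes. The 250 bases before the start of H2-K1 lie at chr17:34000348-34000597 on the minus strand, and the 249 bases before the gene body of B2m at chr2:122147437-122147685 on the plus strand. Neither stretch overlaps an annotated exon. The windows of the other 5 genes (H2-D1, Tap1, Tapbp, Psmb8 and Psmb9) lie wholly in annotated exons of GENCODE vM21, of the gene itself or of an overlapping one, so their matches are to letters before a RefSeq start and may lie in transcribed sequence. Capitals mark matches to the searched motifs on either strand, which do not overlap one another.

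H2-K1: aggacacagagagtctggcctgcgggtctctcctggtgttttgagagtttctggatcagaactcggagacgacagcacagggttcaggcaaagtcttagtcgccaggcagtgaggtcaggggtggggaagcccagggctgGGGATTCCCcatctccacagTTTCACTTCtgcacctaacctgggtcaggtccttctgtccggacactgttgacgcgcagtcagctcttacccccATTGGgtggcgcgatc

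B2m: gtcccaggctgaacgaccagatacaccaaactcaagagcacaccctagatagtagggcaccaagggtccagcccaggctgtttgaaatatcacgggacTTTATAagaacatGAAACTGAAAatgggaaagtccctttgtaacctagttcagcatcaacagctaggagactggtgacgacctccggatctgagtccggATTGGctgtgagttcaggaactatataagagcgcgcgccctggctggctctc

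In H2-K1 the capitals mark, in order, GGGATTCCC (a form of the NF-kB motif), a reverse-strand match to GAANNGAAA (a short form of the interferon-response element) and a reverse-strand match to CCAAT. They begin 110, 90 and 16 bases before the start. In B2m they mark a reverse-strand match to TATAAA, a match to a longer form of the interferon-response element (GAAA, any 2 bases, GAAA, added to the search after the sequences were seen) and a reverse-strand match to CCAAT. They begin 152, 139 and 53 bases before the RefSeq start, which lies 1 base inside the gene body, past the end of the printed bases. The same pair of kB and interferon-response matches as in H2-K1 stood in H2-D1, 170 and 150 bases before its RefSeq start, which lies 364 bases from the GENCODE start of the gene. The H2-D1 matches thus lie inside the annotated gene. The 29 bases from one match to the other are at chr17:34000429-34000457 on the minus strand for H2-K1 and at chr17:35262924-35262952 on the plus strand for H2-D1.

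H2-K1: GGGATTCCCcatctccacagTTTCACTTC

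H2-D1: GGGATTCCCcatctcctcagTTTCACTTC

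They differ by 1 base, A17T, counted from the 5′ end with the H2-K1 base first. GGGATTCCC was found in 0.301% of 32851 RefSeq promoters searched over the same length, and GAANNGAAA in 6.31%. Among the 7 genes, these exact letters were found in H2-K1 and H2-D1 and in no other. Other forms of the NF-kB motif were not searched, so the other genes, B2m among them, are not shown to lack one. The longer form was found in B2m alone of the 7 and in 2.98% of all. CCAAT was found in 6 of the 7 genes, Psmb8 being the exception, and in 33.85% of all promoters. The RefSeq starts used for Tapbp, Psmb8 and Psmb9 lie 3579, 474 and 434 bases from their GENCODE starts. As for H2-D1, matches in these windows thus lie inside the annotated gene. TTCNNNGAA, a form of the GAS element, was found in Psmb8 alone of the 7 and in 7.02% of all. TATAAA was found in H2-D1, B2m and Psmb8 and in 12.4% of all. TGACGTCA, the cAMP-response element, was found in none of the 7 and in 1.55% of all. A match describes the letters of these windows and shows no binding.

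Of the 9 genes placed here, 8 lie on chromosome 17 (GRCm38, GENCODE vM21). H2-K1 is at chr17:33996017-34000347 and H2-D1 at chr17:35262730-35267499. Tapbp is at chr17:33915899-33929292, Psmb8 at chr17:34197721-34201454, Tap2 at chr17:34203527-34216321 and H2-Ab1 at chr17:34257689-34269419. Psmb9 (chr17:34181987-34187764) and Tap1 (chr17:34187553-34197225) overlap at their 5′ ends on opposite strands, and whether counting used the strand is not given in the sources used here. B2m lies apart at chr2:122147686-122153083. Drop-seq reads come from the 3′ end, and H2-K1 and H2-D1 shared 0.444% of their 50-base words in the last 500 transcript bases.

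**Figure D1:**
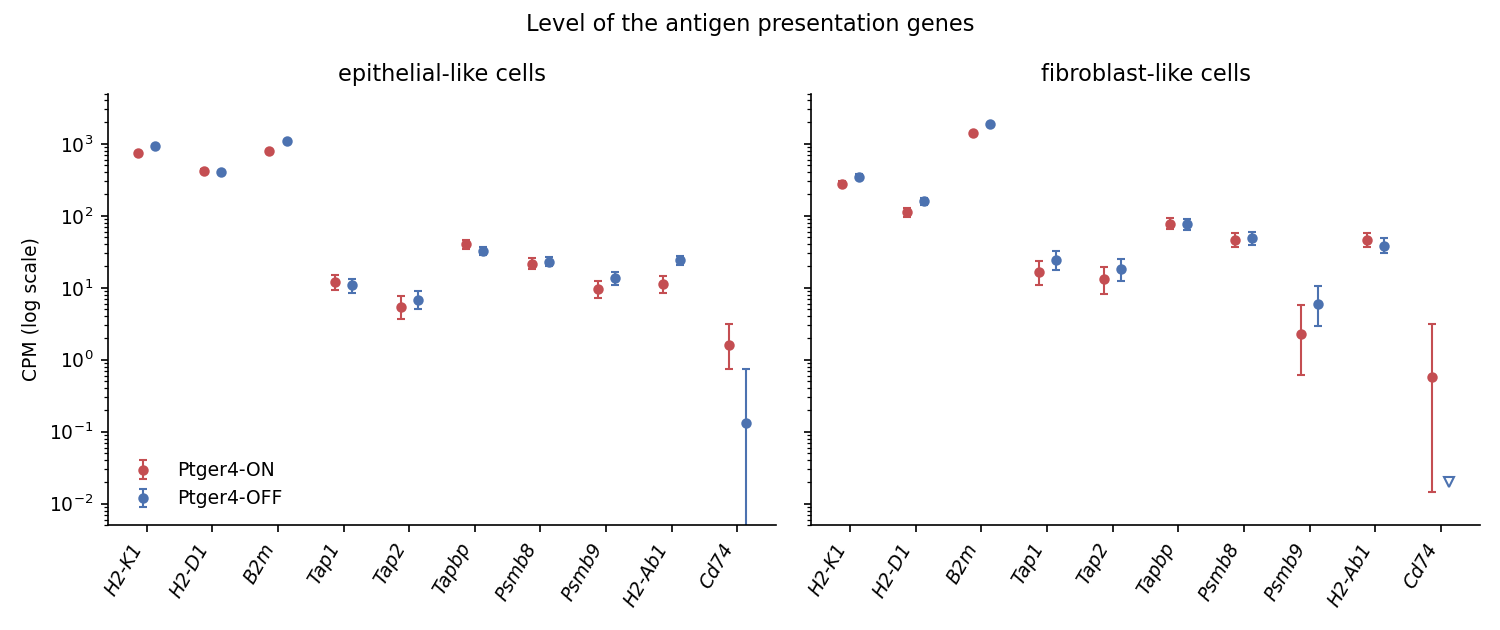
Level of each of the 10 genes in CPM (log axis) in epithelial-like and fibroblast-like cells of the Ptger4-ON and Ptger4-OFF libraries, with exact Poisson 95% intervals. Cd74 has 10 UMIs in epithelial-like cells and 1 in fibroblast-like cells over both libraries, and an open triangle marks a count of 0.

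The first comparison asks whether blocking EP4 went along with another level of these genes within each class. In epithelial-like cells B2m, H2-K1 and H2-Ab1 were higher in Ptger4-OFF, H2-D1 was level within counting error, and Tapbp was slightly lower. In fibroblast-like cells all 3 of H2-K1, H2-D1 and B2m were higher in Ptger4-OFF, by 1.24 to 1.42-fold. Only H2-Ab1 in epithelial-like cells passed the fold rule, a ratio of at least 1.5 in either direction with a counting interval that excludes 1, in genes with at least 20 UMIs over both libraries.

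The heavy chains bind the peptide and face the T cell receptor. H2-K1 stood at 743 CPM in Ptger4-ON and 930.5 CPM in Ptger4-OFF epithelial-like cells, from 4114 and 7075 UMIs, a ratio of 1.25 [1.20 to 1.30]. In fibroblast-like cells it stood at 280 and 347 CPM, from 492 and 639 UMIs, a ratio of 1.24 [1.10 to 1.40]. The shift of H2-K1 was thus about the same in both classes, at different levels. H2-D1, the second heavy chain, stood at 426 and 409 CPM in epithelial-like cells, from 2355 and 3107 UMIs, with a ratio of 0.96 [0.91 to 1.01]. In fibroblast-like cells H2-D1 stood at 112 and 159 CPM, from 197 and 292 UMIs, with a ratio of 1.42 [1.18 to 1.71]. The heavy chains therefore parted in epithelial-like cells, where 1 was higher in Ptger4-OFF and the other was not, and moved the same way in fibroblast-like cells.

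B2m, the light chain that every class I molecule needs to reach the surface, stood at 791 CPM in Ptger4-ON and 1093 CPM in Ptger4-OFF epithelial-like cells, from 4376 and 8311 UMIs, a ratio of 1.38 [1.33 to 1.43]. In fibroblast-like cells it stood at 1394 and 1894 CPM, from 2449 and 3484 UMIs, a ratio of 1.36 [1.29 to 1.43]. In these class sums B2m was higher in Ptger4-OFF in both classes by nearly the same ratio. With the cluster mix held fixed, its epithelial-like log2 ratio was 0.25, beside 0.47 as reported. The fibroblast-like log2 ratio ran from 0.43 to 0.51 over 19 alternatives, so the match between the classes depends on the cluster mix. In each library B2m was higher in fibroblast-like than in epithelial-like cells.

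The transporter and loading genes had few UMIs, and their intervals were wide. Tap1, a subunit of the peptide transporter, stood at 11.9 and 10.8 CPM in epithelial-like cells (66 and 82 UMIs), with a ratio of 0.904 [0.646 to 1.27]. Its fibroblast-like levels were 16.5 and 23.9 CPM (29 and 44 UMIs), with a ratio of 1.45 [0.887 to 2.40]. Both intervals include 1. Tap2, the other subunit, stood at 5.42 and 6.84 CPM in epithelial-like cells (30 and 52 UMIs), with a ratio of 1.26 [0.79 to 2.05], and at 13.1 and 17.9 CPM in fibroblast-like cells (23 and 33 UMIs), with a ratio of 1.37 [0.781 to 2.45]. A difference in either transporter gene was not detectable at this depth. Tapbp, which encodes tapasin, stood at 39.9 and 32.35 CPM in epithelial-like cells (221 and 246 UMIs), with a ratio of 0.81 [0.673 to 0.976]. In fibroblast-like cells Tapbp stood at 78.0 and 76.1 CPM (137 and 140 UMIs), with a ratio of 0.976 [0.766 to 1.25]. Tapbp was the only gene of the 9 measured in epithelial-like cells whose interval lay under 1. Its direction turned with the cluster mix held fixed, from a log2 ratio of −0.30 to 0.16, and 4 of the 5 epithelial-like clusters compared had ratios over 1.

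Psmb8 and Psmb9 encode catalytic subunits of the immunoproteasome. Psmb8 stood at 21.7 and 23.15 CPM in epithelial-like cells (120 and 176 UMIs), with a ratio of 1.07 [0.842 to 1.36], and at 46.7 and 48.4 CPM in fibroblast-like cells (82 and 89 UMIs), with a ratio of 1.04 [0.759 to 1.42]. Psmb8 was level within counting error in both classes. Psmb9 stood at 9.58 and 13.6 CPM in epithelial-like cells (53 and 103 UMIs), with a ratio of 1.41 [1.01 to 2.01]. In Ptger4-ON, 1 barcode of 130922 UMIs held 9 of the 53 UMIs, and without all barcodes over 50000 UMIs the ratio was 1.755 [1.17 to 2.69] (33 and 98 UMIs), past the fold rule. In fibroblast-like cells Psmb9 had 4 and 11 UMIs, too few for the rule.

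H2-Ab1, the class II beta chain, had the largest ratio of the 9 genes in epithelial-like cells. It stood at 11.2 CPM in Ptger4-ON and 23.9 CPM in Ptger4-OFF, from 62 and 182 UMIs, a ratio of 2.14 [1.59 to 2.90]. Without barcodes over 50000 UMIs the ratio was 1.92 [1.40 to 2.67]. In fibroblast-like cells H2-Ab1 stood at 46.7 and 38.6 CPM (82 and 71 UMIs), with a ratio of 0.827 [0.593 to 1.15]. The interval in fibroblast-like cells includes 1, and the difference between the classes was not tested. Cd74, the invariant chain, had 9 UMIs in Ptger4-ON and 1 in Ptger4-OFF epithelial-like cells, and 1 and 0 in fibroblast-like cells. A count of 0 of 1839148 UMIs allows a level of up to 1.63 CPM, taken as 3 counts. Cd74 was under the 20 UMIs the rule asks for in both classes.

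Among other class II chain genes, H2-Eb1 had 5 and 2 UMIs in epithelial-like and 0 and 1 in fibroblast-like cells, and H2-Aa and Ciita, the class II alpha chain and the main activator of class II genes, were not among the listed genes. H2-DMa and H2-DMb1, which encode the chains of the peptide-exchange factor DM and were named after their values were seen, were each measured in 1 class. H2-DMa stood at 3.25 and 5.66 CPM in epithelial-like cells (18 and 43 UMIs), a ratio of 1.74 [0.982 to 3.20]. H2-DMb1 stood at 27.3 and 23.9 CPM in fibroblast-like cells (48 and 44 UMIs), a ratio of 0.876 [0.568 to 1.35]. Both intervals include 1. In Ptger4-ON 102 cells held H2-Ab1 and 9 held Cd74, and in Ptger4-OFF 179 and 1. Both were found together in 4 cells of Ptger4-ON and in no cell of Ptger4-OFF. Professional antigen-presenting cells carry these genes together, so leukocyte markers were counted beside them. Of 21 leukocyte markers, 9 and 6 were detected in epithelial-like cells, summing to 16.8 and 12.9 CPM, and 5 and 5 in fibroblast-like cells, summing to 22.8 and 14.7 CPM. Ptprc (CD45), which all leukocytes carry, had 1 UMI in Ptger4-ON epithelial-like cells and 0 in the other 3 groups. A leukocyte marker UMI was found in 20 of the 102 and 22 of the 179 cells with H2-Ab1. Among all cells, one was found in 93 of 876 and 108 of 1560. Depth was not matched here, and deeper cells are more likely to hold a UMI of either kind. Few genes carried these sums. In epithelial-like cells Cd68 and Itgam gave 55 and 21 of 93 marker UMIs in Ptger4-ON, and 52 and 34 of 98 in Ptger4-OFF. In fibroblast-like cells Lyz2 gave 25 of 40 in Ptger4-ON and 19 of 27 in Ptger4-OFF. The part of leukocytes in the level of H2-Ab1 was not tested.

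Counted over the genes, 1 of 9 measured in epithelial-like cells was past the fold rule upward, against 5.36% of all 11613 genes measured there, and 0 of 9 downward, against 8.54%. In fibroblast-like cells 0 of 8 were past it upward, against 3.32% of 9757 genes, and 0 of 8 downward, against 3.51%. The median log2 ratio was 0.32 in epithelial-like cells, with 6 of 9 ratios over 1, and −0.04 over all genes, with 45.9% over 1. In fibroblast-like cells it was 0.38, with 6 of 8 over 1, beside 0.02 over all genes with 52.1% over 1. Most differences of these genes were therefore under 1.5-fold.

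**Figure D2:**
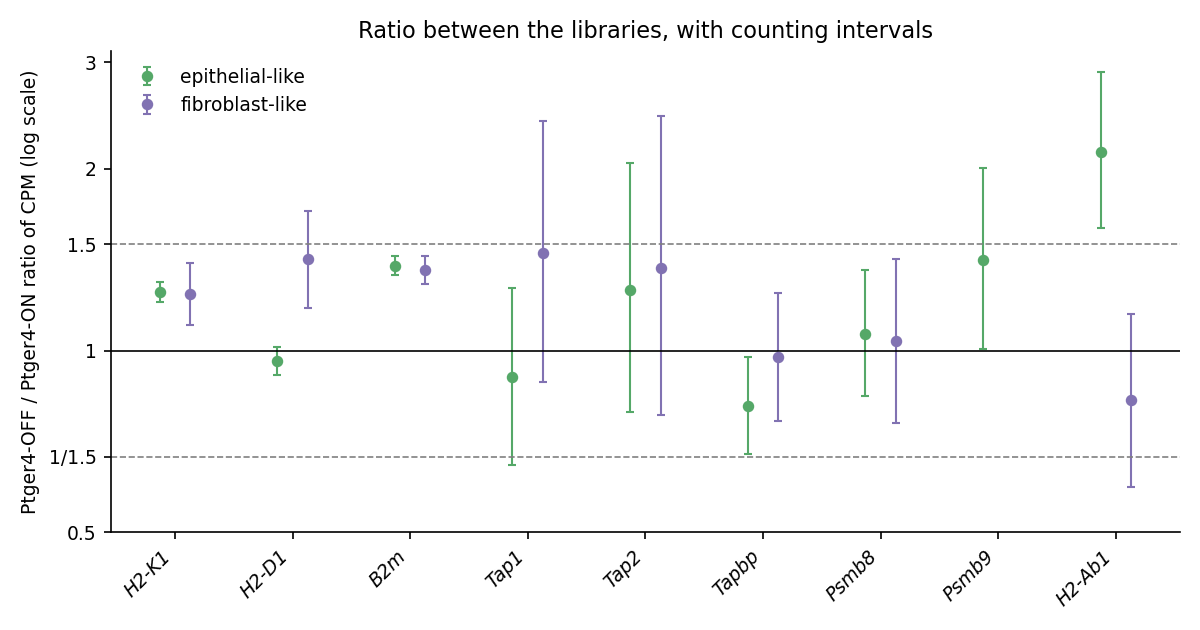
OFF/ON ratio of each gene (log axis) in epithelial-like and fibroblast-like cells with exact conditional binomial 95% intervals, which cover counting error only. H2-Ab1 in epithelial-like cells, at 2.14, is the only measured gene past the fold rule of 1.5.

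The next comparison sets fibroblast-like against epithelial-like cells within each library. The genes split in a way that did not follow the steps of the pathway. B2m, Tap2, Tapbp, Psmb8 and H2-Ab1 were higher in fibroblast-like cells of both libraries, and H2-K1, H2-D1 and Psmb9 were higher in epithelial-like cells of both. The classes came from clustering on all genes, so these values are a description.

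On the side of the fibroblast-like cells, B2m was 1.76-fold higher in Ptger4-ON [1.68 to 1.85] and 1.73-fold in Ptger4-OFF [1.67 to 1.80]. Tapbp was 1.95-fold [1.57 to 2.43] and 2.35-fold [1.90 to 2.91] higher, and Psmb8 2.15-fold [1.61 to 2.87] and 2.09-fold [1.602 to 2.71]. These ratios were close between the libraries. Tap2 was 2.42-fold [1.34 to 4.30] and 2.62-fold [1.64 to 4.14] higher. Tap1 was 1.38-fold higher in Ptger4-ON [0.862 to 2.17], with an interval that includes 1, and 2.22-fold in Ptger4-OFF [1.502 to 3.24]. H2-Ab1 was 4.17-fold higher in Ptger4-ON [2.96 to 5.89] and 1.61-fold in Ptger4-OFF [1.21 to 2.13], where its epithelial-like level was higher.

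On the side of the epithelial-like cells, H2-K1 was 2.66-fold higher in Ptger4-ON [2.42 to 2.92] and 2.68-fold in Ptger4-OFF [2.47 to 2.91]. H2-D1 was 3.80-fold [3.28 to 4.41] and 2.57-fold [2.28 to 2.91] higher. Psmb9 was 4.21-fold higher in Ptger4-ON [1.55 to 16.01], where fibroblast-like cells had 4 UMIs, and 2.27-fold in Ptger4-OFF [1.21 to 4.68]. The heavy chains and their light chain thus stood on opposite sides, as did the paired immunoproteasome subunits.

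In Ptger4-ON, 5 of 9 measured genes were past the fold rule toward fibroblast-like cells and 3 of 9 toward epithelial-like cells, where 22.2% and 34.7% of all 11526 genes were. In Ptger4-OFF the counts were 6 and 3 of 9, beside 23.2% and 34.3% of 11778 genes. A majority of all genes differ between these classes, so passing the rule sets no gene apart.

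**Figure D3:**
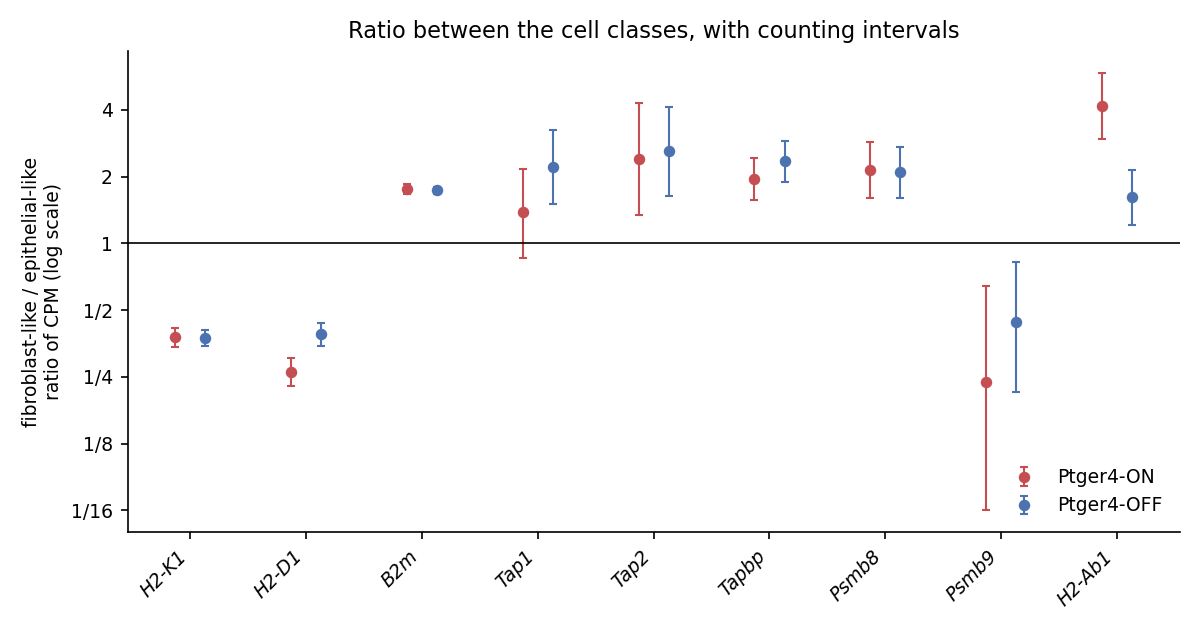
Ratio of the fibroblast-like to the epithelial-like level of each gene (log axis) in the Ptger4-ON and Ptger4-OFF libraries, with exact conditional binomial 95% intervals. B2m, Tap2, Tapbp, Psmb8 and H2-Ab1 lie above 1 and H2-K1, H2-D1 and Psmb9 below 1 in both libraries.

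The last comparison looks inside the classes, since the libraries held different mixes of epithelial states. Clusters are named by their leading genes. Clu/Msln cells are fetal-like by 4 markers of regenerative epithelium among their top 10 genes, with 175 cells in Ptger4-ON and 67 in Ptger4-OFF. Fabp1/Apoa1 cells are enterocyte-like, with 24 and 115 cells. Top2a/Nusap1 cells are cycling-like, with 191 and 414 cells, and Defa17/Defa24 cells carry Paneth and goblet markers, with 66 and 67. Nrn1/2610528A11Rik cells, 131 and 520, had 1 crypt stem marker among their top genes and stay unnamed. The fibroblast-like class was made of Grem1/Mmp10 cells, 53 and 53, and Mgp/Ctla2a cells, 235 and 307. Clu/Msln cells gave 33.1% of the epithelial-like UMIs in Ptger4-ON and 8.18% in Ptger4-OFF. Chgb/Gip cells, enteroendocrine-like, were 1 and 17 and are not compared. Clusters with at least 25 cells in both libraries were compared, 4 epithelial-like and 2 fibroblast-like, and the Fabp1/Apoa1 cluster, with 24 in Ptger4-ON, was added after the data were seen.

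H2-K1 was higher in Ptger4-OFF in 6 of 6 clusters, and 5 of the 6 intervals lay over 1. Its largest ratio was in Clu/Msln cells, at 765 and 1278 CPM, a ratio of 1.67 [1.53 to 1.82]. Top2a/Nusap1 cells stood at 675 and 839 CPM, a ratio of 1.24 [1.17 to 1.32], and Nrn1/2610528A11Rik cells at 736 and 893 CPM, a ratio of 1.21 [1.09 to 1.35]. The ratio of H2-K1 thus varied between the epithelial-like clusters. Mgp/Ctla2a cells stood at 282 and 344 CPM, a ratio of 1.22 [1.07 to 1.39]. Grem1/Mmp10 cells stood at 271 and 373 CPM, a ratio of 1.37 [1.02 to 1.84], which was 1.25 [0.923 to 1.69] without 1 Ptger4-OFF barcode of 5536 UMIs that held 10 of the 91 UMIs. In Defa17/Defa24 cells the levels of 818 and 882 CPM gave 1.08 [0.943 to 1.23], and the ratio was 0.98 [0.855 to 1.13] without the Ptger4-ON barcode of 130922 UMIs. Among Fabp1/Apoa1 cells it stood at 1083 and 1176 CPM, a ratio of 1.085 [0.942 to 1.26].

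H2-D1 went in different directions in different clusters, which its level ratio over the class does not show. It was higher in Ptger4-OFF in Clu/Msln cells, at 558 and 760 CPM, a ratio of 1.36 [1.22 to 1.52], and in Top2a/Nusap1 cells, at 294.5 and 349 CPM, a ratio of 1.18 [1.08 to 1.30]. It was lower in Defa17/Defa24 cells, at 411 and 279.5 CPM, a ratio of 0.680 [0.545 to 0.846], and in Fabp1/Apoa1 cells, at 872 and 589 CPM, a ratio of 0.675 [0.571 to 0.802]. Nrn1/2610528A11Rik cells were level, at 374 and 358 CPM, a ratio of 0.958 [0.820 to 1.12]. Both fibroblast-like clusters had more in Ptger4-OFF. Grem1/Mmp10 cells stood at 189 and 324 CPM, a ratio of 1.71 [1.23 to 2.40], which was 1.44 [1.01 to 2.05] without the barcode of 5536 UMIs, and Mgp/Ctla2a cells at 91.2 and 133.5 CPM, a ratio of 1.46 [1.17 to 1.84].

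B2m was higher in Ptger4-OFF in 5 of 6 clusters. The largest ratio was in Grem1/Mmp10 cells, at 1747.5 and 2965 CPM, a ratio of 1.70 [1.53 to 1.89], and the barcode of 5536 UMIs held 72 of the 724 UMIs there. Without that barcode the ratio was 1.56 [1.40 to 1.745]. Mgp/Ctla2a cells stood at 1298 and 1730.4 CPM, a ratio of 1.33 [1.26 to 1.42]. Clu/Msln cells stood at 665.5 and 877.5 CPM, a ratio of 1.32 [1.19 to 1.46], and Top2a/Nusap1 cells at 734.5 and 964 CPM, a ratio of 1.31 [1.24 to 1.39]. These 4 clusters include both classes and had similar ratios apart from the first. Nrn1/2610528A11Rik cells stood at 992 and 1135 CPM, a ratio of 1.14 [1.04 to 1.26]. The exception was the Defa17/Defa24 cluster, at 794 and 726 CPM, a ratio of 0.915 [0.793 to 1.06], where the Ptger4-ON barcode of 130922 UMIs held 176 of the 483 UMIs. Without barcodes over 50000 UMIs its ratio was 1.136 [0.9645 to 1.34]. In Fabp1/Apoa1 cells, at 1923 and 1892.5 CPM, the ratio was 0.984 [0.884 to 1.10], and 1 Ptger4-ON barcode of 92081 UMIs held 256 of the 419 UMIs. Without barcodes over 50000 UMIs it was 1.47 [1.25 to 1.73].

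H2-Ab1 was spread unevenly over the clusters, with low counts. Grem1/Mmp10 cells stood at 101.1 and 77.8 CPM (38 and 19 UMIs), a ratio of 0.77 [0.419 to 1.37]. They were 3.17-fold [2 to 5.01] above the next cluster in Ptger4-ON, and 1.49-fold [0.827 to 2.6] above it in Ptger4-OFF, where counting error does not separate them. Over the lowest cluster, the Top2a/Nusap1 cells, this was 14.6-fold [7.94 to 28.0] in Ptger4-ON and 6.79-fold [3.72 to 12.0] in Ptger4-OFF. Nrn1/2610528A11Rik cells stood at 12.5 and 38.9 CPM (7 and 78 UMIs), a ratio of 3.11 [1.44 to 7.995]. In Fabp1/Apoa1 cells there were 2 and 46 UMIs, 9.18 and 52.1 CPM, with a ratio of 5.68 [1.49 to 48.3], which was 3.36 [0.876 to 28.6] without barcodes over 50000 UMIs. The higher epithelial-like total of H2-Ab1 in Ptger4-OFF came mostly from these clusters, which held 78 and 46 of its 182 UMIs. The Top2a/Nusap1 cells had 6.93 and 11.5 CPM, a ratio of 1.65 [0.908 to 3.16], the Clu/Msln cells 10.9 and 14.5 CPM, and the Defa17/Defa24 cells 27.9 and 15.4 CPM, a ratio of 0.551 [0.193 to 1.40]. Mgp/Ctla2a cells were level, at 31.9 and 32.6 CPM. The 9 epithelial-like Cd74 UMIs of Ptger4-ON lay in 8 Clu/Msln cells.

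The low-count genes of the class I pathway gave no cluster ratio with an interval off 1, except for Tap2 in Clu/Msln cells. There Tap2 had 5 UMIs in Ptger4-ON and 9 in Ptger4-OFF, 2.73 and 14.5 CPM, a ratio of 5.29 [1.59 to 20.1]. Tapbp varied more between clusters than between libraries. It stood at 75.9 and 69.1 CPM in Clu/Msln cells, a ratio of 0.91 [0.631 to 1.29], and at 8.94 and 20.96 CPM in Nrn1/2610528A11Rik cells, the lowest value in both libraries, a ratio of 2.35 [0.929 to 7.60]. Its ratios were 1.48 in Fabp1/Apoa1, 1.13 in Top2a/Nusap1 and 1.05 in Defa17/Defa24 cells, with intervals that include 1. The highest and lowest Tapbp clusters differed 10.1-fold in Ptger4-ON [3.94 to 33.1] and 3.77-fold in Ptger4-OFF [2.64 to 5.48]. Psmb8 stood at 69.15 and 49.15 CPM in Grem1/Mmp10 cells, above the next cluster in Ptger4-ON, 1.71-fold [1.03 to 2.76], and level with Mgp/Ctla2a cells in Ptger4-OFF, 1.02-fold [0.504 to 1.88].

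**Figure D4:**
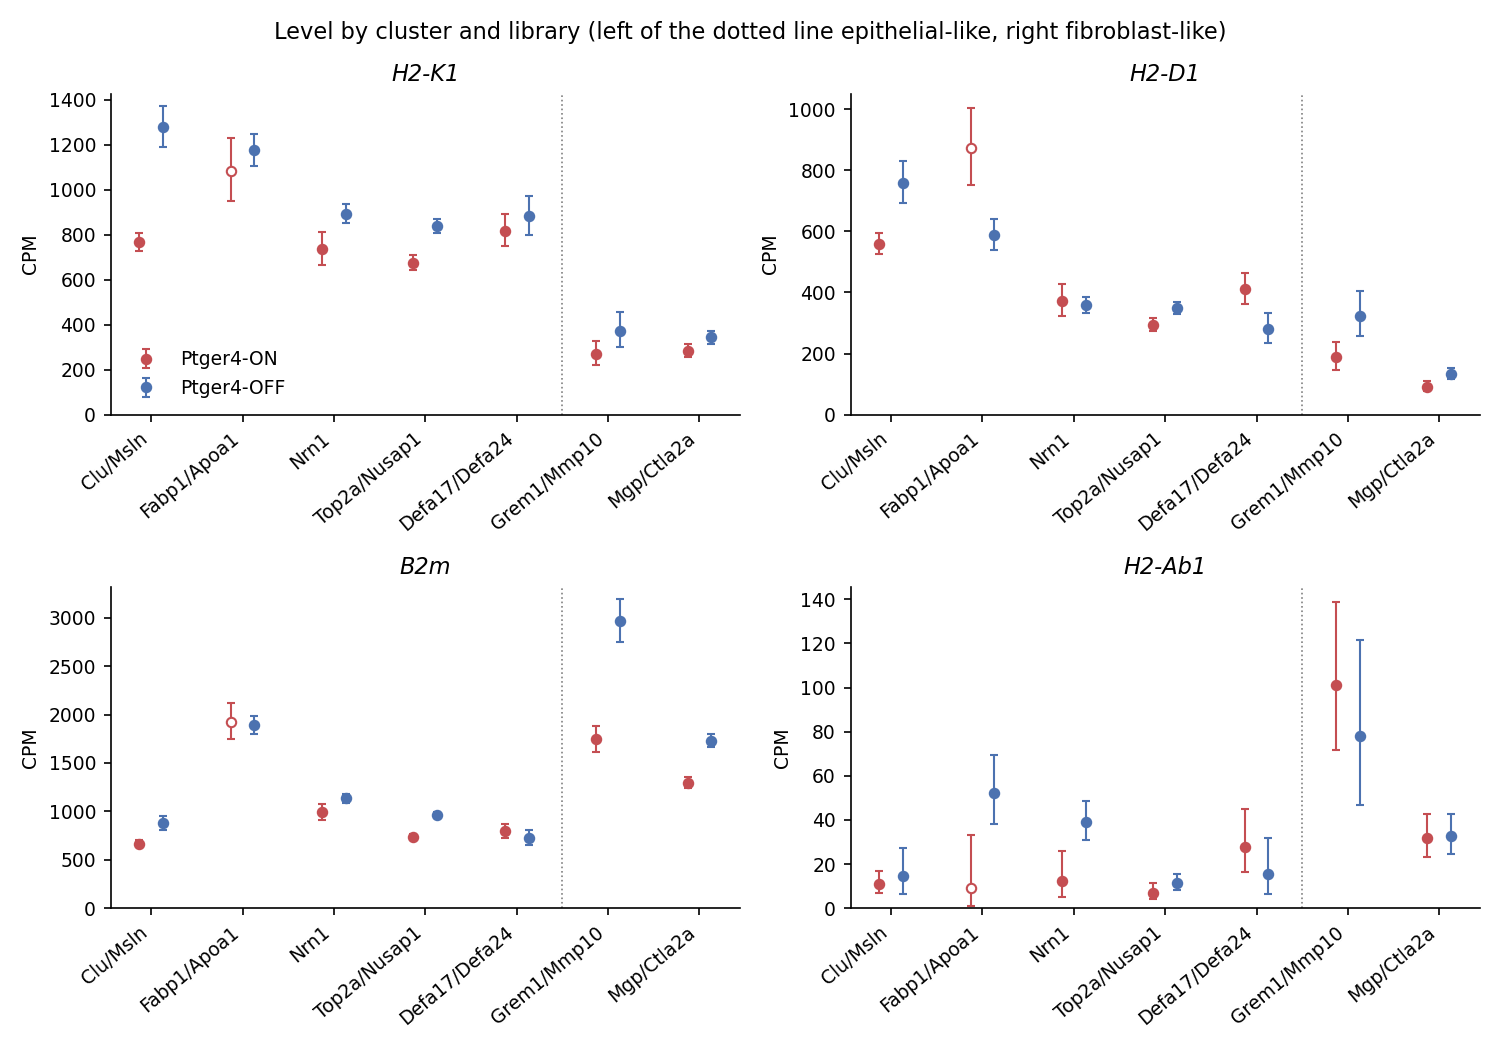
Level in CPM (linear axis) of H2-K1, H2-D1, B2m and H2-Ab1 in each cluster of the Ptger4-ON and Ptger4-OFF libraries, with exact Poisson 95% intervals. An open point marks the enterocyte-like cluster of 24 cells in Ptger4-ON, and H2-K1 is higher in Ptger4-OFF in all 6 clusters with at least 25 cells in both libraries.

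The order of the clusters was fixed better for some genes than for others. For H2-K1 in Ptger4-ON, Fabp1/Apoa1 cells came first, followed by Defa17/Defa24, Clu/Msln, Nrn1/2610528A11Rik and Top2a/Nusap1 cells. Among these last 4, no cluster could be told apart from the next in order by the interval of their ratio. Clusters further apart could. Defa17/Defa24 cells at 818 CPM [748 to 893] and Clu/Msln cells at 765 CPM [726 to 807] lay above Top2a/Nusap1 cells at 675 CPM [642 to 709.5]. The fibroblast-like clusters came last, with a step of 2.39-fold [2.14 to 2.68] above them. In Ptger4-OFF the Clu/Msln cells led and the step to the fibroblast-like clusters was 2.25-fold [1.83 to 2.80]. H2-K1 spanned 3.99-fold [3.15 to 5.09] from its highest to its lowest cluster in Ptger4-ON and 3.72-fold [3.33 to 4.15] in Ptger4-OFF. H2-D1 spanned 9.56-fold [7.59 to 12.1] and 5.69-fold [4.83 to 6.72], with Fabp1/Apoa1 and Clu/Msln cells in the first 2 places and Mgp/Ctla2a cells in the last in both libraries. B2m spanned 2.89-fold [2.58 to 3.23] and 4.08-fold [3.58 to 4.67], and its first 3 places in both libraries went to the Fabp1/Apoa1 cluster and the fibroblast-like clusters.

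Across the 13 cluster-by-library groups of at least 25 cells, the level of H2-K1 went with that of H2-D1 at r = 0.85 (Pearson, log2 of CPM + 10). B2m went against H2-K1 at r = −0.54. The groups share 2 libraries and their class makeup, and these correlations are a description. The 3 genes of 5721 with the most similar pattern to H2-K1 were Bcl2l14 at r = 0.99, Igsf5 at r = 0.98 and Ifi27l2b at r = 0.98. For H2-D1 they were Btc, Azin1 and Taok3, all at r = 0.94. For B2m they were Mocs2, Tmem59 and Mettl9, all at r = 0.94. For Tapbp they were Gnaq at r = 0.94, Asap1 at r = 0.93 and Riok3 at r = 0.91.

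Shares of cells were compared after each cell was thinned to 1000 UMIs, which kept 530 and 1153 epithelial-like and 259 and 348 fibroblast-like cells and left out 58 and 47, and 29 and 12. Median depths before thinning were 5496 and 4319 UMIs in the epithelial-like and 5114 and 4640 in the fibroblast-like cells kept. A UMI of B2m was found in 52.3% [47.9 to 56.6] of epithelial-like cells in Ptger4-ON, in 62.45% [59.6 to 65.25] in Ptger4-OFF, and in 66.0% [59.9 to 71.8] and 75.6% [70.7 to 80.0] of fibroblast-like cells. Before thinning the B2m shares were 80.4% and 89.4%, and 84.0% and 93.3%. The share of cells with B2m was higher in Ptger4-OFF in both classes. The thinned intervals lay apart in epithelial-like cells and overlapped in fibroblast-like cells. For H2-K1 the thinned shares were 50.75% [46.4 to 55.1] and 58.5% [55.55 to 61.3] in epithelial-like cells, and 25.5% [20.3 to 31.25] and 27.3% [22.7 to 32.3] in fibroblast-like cells. In 1 thinning to 500 UMIs the epithelial-like direction turned, 36.35% and 36.0%, where 32.75% and 37.0% are expected over all thinnings. Its unthinned shares were 86.2% and 91.1%, and 61.8% and 65.8%.

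H2-D1 had a UMI in 33.6% [29.6 to 37.8] and 32.8% [30.1 to 35.6] of thinned epithelial-like cells, and in 8.11% [5.09 to 12.1] and 14.4% [10.9 to 18.5] of fibroblast-like cells. Before thinning, these were 74.8% and 71.75%, and 33.7% and 40.3%. H2-Ab1 had a UMI in 1.51% [0.654 to 2.95] and 2.602% [1.76 to 3.69] of thinned epithelial-like cells, and in 3.86% [1.87 to 6.99] and 2.30% [0.998 to 4.48] of fibroblast-like cells. Before thinning, these were 8.16% and 10.6%, and 18.75% and 14.4%. Intervals for H2-Ab1 overlap between libraries in both classes, so its higher CPM in Ptger4-OFF was not resolved as a share of cells at this depth. No cell class in these cultures is known to lack class I genes, and free RNA was gauged only by the marker shares given above. H2-Q2, a class I gene chosen after its values were seen, had 129 and 435 UMIs in epithelial-like cells. It had 0 in fibroblast-like cells of both libraries, which allows up to 1.71 and 1.63 CPM. At the 1.18% and 1.96% of the epithelial markers, few or no H2-Q2 UMIs would be carried over. The count of 0 therefore cannot gauge free RNA more finely than the markers do.

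The other genes of the pathway were read as lists, and each gene's share in them is given as a count beside the median ratio. In epithelial-like cells 5.36% of all measured genes were past the fold rule upward and 8.54% downward. Of 24 further class I pathway genes measured there, 5 were past it upward and 0 downward, with a median log2 ratio of 0.07. H2-Q10, a class I gene related to the heavy chains above, stood at 163.5 and 287 CPM, a ratio of 1.75 [1.62 to 1.90]. The other 4, named after their values were seen, were H2-Q1, H2-Q2, H2-T3 and Fcgrt. H2-T3, which encodes the thymus leukaemia antigen known from intestinal epithelium, stood at 10.5 and 36.3 CPM, a ratio of 3.46 [2.601 to 4.68], and Fcgrt, the neonatal Fc receptor, at 6.51 and 18.3 CPM. In Ptger4-OFF most UMIs of H2-Q1, H2-Q2 and Fcgrt lay in 1 cluster, whose share differed between the libraries. The enterocyte-like Fabp1/Apoa1 cluster, 3.94% of epithelial-like UMIs in Ptger4-ON and 11.6% in Ptger4-OFF, held 57 of the 63 H2-Q1, 300 of the 435 H2-Q2 and 81 of the 139 Fcgrt UMIs of Ptger4-OFF. Inside it the ratios were 1.28 [0.664 to 2.70], 1.175 [0.893 to 1.57] and 1.18 [0.691 to 2.12]. H2-Q10 and H2-T3 had ratios of 3.05 [2.03 to 4.79] and 2.65 [1.47 to 5.27] there. H2-Q10 had smaller ratios elsewhere, 2.01 in Clu/Msln, 1.69 in Defa17/Defa24, 1.27 in Top2a/Nusap1 and 1.26 in Nrn1/2610528A11Rik cells. In the same order H2-T3 had 0.588, from 5 and 1 UMIs, then 1.72, 2.40 and 1.27. H2-Q1 and H2-Q2 shared 18.85% and 9.98% of their 3′ words with other genes of the family, so their counts are uncertain.

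In fibroblast-like cells 3.32% of all measured genes were past the rule upward and 3.51% downward. Of 20 further class I pathway genes measured there, 3 were past it upward and 0 downward, with a median log2 ratio of 0.19. Psmb10, the third inducible proteasome subunit, was among them at 47.2 and 73.95 CPM, a ratio of 1.565 [1.18 to 2.08], and stood at 117 and 142 CPM in epithelial-like cells, a ratio of 1.215 [1.10 to 1.34]. Nlrc5, the activator of class I genes, had 1 UMI in Ptger4-ON and 0 in Ptger4-OFF in each class. The standard proteasome core had 0 of 14 genes past the rule in either direction in both classes, with medians of 0.10 and 0.13. The standard subunits that the inducible ones replace went different ways. Psmb5 stood at 210.5 and 169 CPM in epithelial-like cells, a ratio of 0.805, Psmb6 at 405 and 452 CPM, a ratio of 1.12, and Psmb7 at 57.1 and 39.5 CPM, a ratio of 0.691. In fibroblast-like cells their ratios were 0.923, 1.28 and 1.15.

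Of 10 further class II pathway genes measured in epithelial-like cells, 1 was past the rule upward and 2 downward, with a median of 0.12. Over all genes the shares there were 5.36% and 8.54%. The 2 lower genes encode lysosomal proteases. Ctsl stood at 259 and 143 CPM, a ratio of 0.552, and Ctsd at 227 and 146 CPM, a ratio of 0.642. The higher one, named after its value was seen, was Ctss, the protease known for trimming the invariant chain, at 26.0 and 53.0 CPM, a ratio of 2.04 [1.68 to 2.48]. In fibroblast-like cells 0 of 9 were past it, with a median of −0.07.

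The interferon pathway was read in the same way. Of 25 interferon-stimulated genes measured in fibroblast-like cells, 17 were past the rule upward and 0 downward, with a median log2 ratio of 0.83 and 24 of 25 ratios over 1. Of 18 in epithelial-like cells, 0 were past it upward and 5 downward, with a median of −0.52. Psmb10 belongs to this list as well as to the class I list. Over all genes 3.32% were past the rule upward and 3.51% downward in fibroblast-like cells, and 5.36% and 8.54% in epithelial-like cells. The part of the cluster mix in the epithelial-like list counts was not tested. Irgm1, an interferon-inducible GTPase, stood at 49.5 and 104 CPM in fibroblast-like cells, a ratio of 2.10 [1.62 to 2.74], and at 28.4 and 34.1 CPM in epithelial-like cells, a ratio of 1.20. The following genes were named after their values were seen. Isg15, a ubiquitin-like protein, stood at 28.5 and 45.7 CPM in fibroblast-like cells, a ratio of 1.605 [1.12 to 2.33], Ifit3 at 7.97 and 29.9 CPM, a ratio of 3.75 [2.06 to 7.31], and Iigp1 at 12.5 and 25.01 CPM, a ratio of 1.997 [1.18 to 3.49].

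Summed over the list, the interferon-stimulated genes stood at 1092 and 1724 CPM in fibroblast-like and at 501 and 451 CPM in epithelial-like cells. The median fibroblast-like cell held 891 CPM in Ptger4-ON (quartiles 420.3 and 1481) and 1407 CPM in Ptger4-OFF (quartiles 807 and 2129). In Ptger4-OFF the cell with the most held 3.47% of the summed UMIs. Of the signalling genes, 0 of 19 were past the rule upward and 3 downward in epithelial-like cells, with a median of −0.15. Over all genes the shares there were 5.36% and 8.54%. In fibroblast-like cells 1 of 17 signalling genes was past the rule upward and 1 downward, beside 3.32% and 3.51% of all genes. The median over the 17 was 0.09. Irf1, a factor that binds interferon-response elements, had 13 and 26 UMIs in fibroblast-like cells, a ratio of 1.91 [0.947 to 4.05], and 30.9 and 25.9 CPM in epithelial-like cells, a ratio of 0.839. Ifngr1, a chain of the interferon-gamma receptor, had ratios of 1.235 in fibroblast-like and 1.13 in epithelial-like cells. Median mitochondrial shares were 1.19% and 1.36% in fibroblast-like and 2.32% and 3.30% in epithelial-like cells, and their part in these ratios was not tested.

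**Figure D5:**
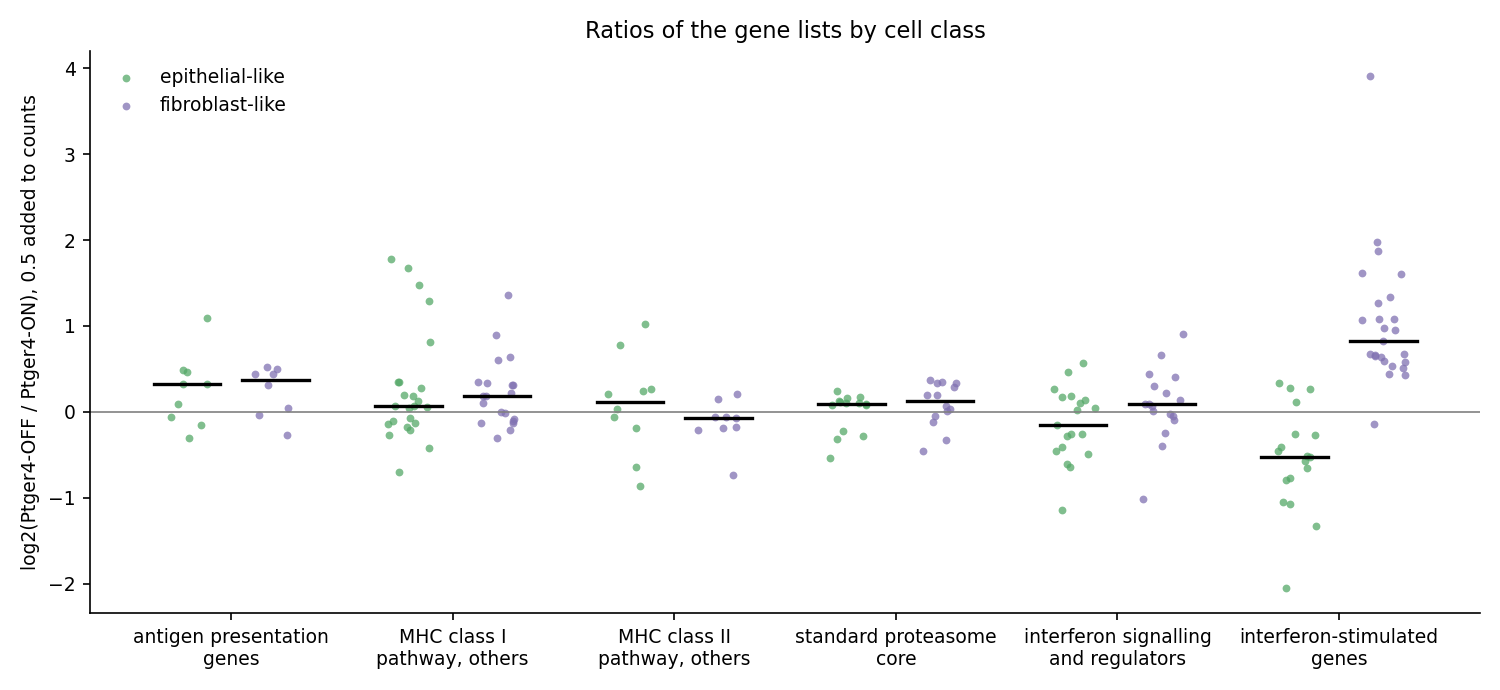
Log2 OFF/ON ratio of each measured gene of the antigen presentation genes and of 5 pathway lists in epithelial-like and fibroblast-like cells, with the median of each list. The interferon-stimulated genes have medians of −0.52 and 0.83, and the antigen presentation genes 0.32 and 0.38.

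Side by side, the median of the antigen presentation genes in epithelial-like cells was 0.32 and that of the interferon-stimulated list −0.52. For fibroblast-like cells the medians were 0.38 and 0.83. The difference between the genes and the list was not tested.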

How the data were processed

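The deposited values are raw whole-number counts for each gene and cell barcode, without normalization, and the Drop-seq protocol per the labels makes them UMI counts. STAR 2.6 and build mm10 are named per the submitters' processing notes. How barcodes were chosen, the counter, its annotation and its use of strand were not given in the sources used here. The tables held 908 barcodes with 7408303 UMIs (Ptger4-ON) and 1599 with 9490205 (Ptger4-OFF).

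Barcodes under 300 genes or over 20% mitochondrial UMIs were dropped, which left 882 and 1564. Scrublet, run in scanpy 1.11.5 (Python 3.11.15) called 6 and 4 doublets, which were removed. Counts scaled to 10000 per cell were clustered with the Leiden method (igraph 0.11.9, resolution 0.5, 2000 variable genes, 30 principal components, 15 neighbours), and clusters were assigned to a class by summed markers. Cluster names are rebuilt and may differ from the study's own. UMIs were summed over each class or cluster and divided by its total (CPM). On the log2 scale 0.5 was added to counts. A gene was measured with at least 20 UMIs over both libraries in the class. Intervals used scipy 1.17.1. The ratio script was tested on simulated data.

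The 10 genes, the lists and the rule for named genes were chosen with earlier results of these data known. The rule names the 10 genes, list genes past the fold rule with at least 100 CPM in a library (at most 4 in each direction), a few fixed pathway genes, and the 3 most similar genes of each of the 10 with at least 500 UMIs. Alternatives covered filters, scaling (edgeR 4.0.16 in R 4.3.3), equal weight for each cell, cluster mix, thinning and left-out barcodes. Cd74 and other genes without a listed promoter are shown without sequence. 1 gene that the rule names is not reported here.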

Additional observations from a re-analysis of the deposited data

Results flagged for a closer look

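For 8 interferon-stimulated genes the ratio between the libraries lay on opposite sides of 1 in the 2 classes, higher in Ptger4-OFF in fibroblast-like cells and lower in epithelial-like cells, each with a counting interval that excludes 1. The difference between the classes was not tested, since there is 1 library in each group. Given as log2(OFF/ON) in fibroblast-like minus epithelial-like cells, it was 0.70 for Bst2, 1.04 for Ddx58, 3.12 for Gbp7 and 1.16 for Ifi27. It was 1.22 for Ifih1, 2.74 for Ifit1, 4.96 for Rsad2 and 1.98 for Xaf1. Rsad2 rests on few UMIs, with 1 and 23 in fibroblast-like cells, a ratio of 21.97 [3.57 to 905], and 38 and 25 in epithelial-like cells. Bst2, which encodes tetherin and is the best counted of them beside Ifi27, had 559 and 792 UMIs in fibroblast-like and 407 and 467 in epithelial-like cells. None of the 10 antigen presentation genes met this description.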

How the results depend on the processing

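In epithelial-like cells the number of antigen presentation genes past the fold rule upward was 3 with equal weight for each cell (Psmb8 and Psmb9 joined H2-Ab1) and 2 without barcodes over 50000 UMIs (Psmb9 joined), where the reported count is 1. Downward it was 1 with at least 10 UMIs for a gene and with no filter on low counts, where Cd74 enters with 9 and 1 UMIs. The median log2 ratio was 0.45 with equal weight for each cell. In fibroblast-like cells the count upward was 1 with the cluster mix held fixed, H2-D1 at a log2 ratio of 0.62. The difference in the share of epithelial-like cells with H2-K1 was −0.35 percentage points in 1 random thinning to 500 UMIs, with 4.3 points expected over all thinnings. The epithelial-like log2 ratio of H2-D1 ran from −0.12 to 0.08, of Tap1 from −0.27 to 0.45 and of Tapbp from −0.34 to 0.16 over 19 alternatives, so their direction is not fixed. That of H2-Ab1 ran from 0.93 to 1.34, of B2m from 0.25 to 0.52 and of H2-K1 from 0.17 to 0.37. No paired analysis was possible because each condition has 1 library.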
